A study of Sus scrofa with 12 samples.

Results

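The genes of smooth muscle and enteric neurons were described in the oxyntic mucosa of 12 piglets. The list held 8 genes, and 5 of them were measured by a feature of the array that carries their symbol alone, which were the smooth muscle genes CNN1, TAGLN, ACTA2 and PLN and the neuronal gene UCHL1. DES, MYH11 and ACTG2 were not analysed here. The 5 genes stood among 10882 genes named in this way, and each of the 5 was measured by 1 feature. The oxyntic mucosa lines the body of the stomach and secretes acid. It was taken at 2 weeks of age from 6 CA piglets (complex association) and 6 SA piglets (simple association) of a (Great York x Pietrain) x 'Dalland' cross, all born by caesarean section and fed artificially. All piglets received sow colostrum at birth according to the labels, or sow serum according to the methods of the study, and all were then inoculated with Lactobacillus amylovorus, Clostridium glycolicum and Parabacteroides spp. in the first days of life. The CA piglets were thereafter given diluted feces of an adult sow, and the SA piglets a placebo. Neither group was germ-free, since the SA piglets carried the starter bacteria too. Each piglet gave 1 array, and the litter, sex and pen of the single piglets were not known here. The labels place the CA and the SA piglets in separate rooms, whereas the methods of the study place piglets of both groups together. If the labels hold, room and microbiota cannot be told apart.

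Smooth muscle contracts when calcium activates myosin light chain kinase and myosin pulls on thin filaments of actin, tropomyosin, calponin and caldesmon. In the stomach it forms the muscularis mucosae, a thin sheet below the gastric glands, and the thick outer muscle coat, and strands of it run up between the glands. The neurons and glia of the enteric nervous system lie in plexuses below the mucosa and within the muscle coat, from where fibres reach the glands. How much of the gastric wall each sample held was not stated, and its part in the values below was not tested.

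The median intensity per array ran from 55.6 to 57.6. The deposited values had been normalized to one distribution, so this closeness is not a check of the arrays. The labelled tissue was checked on its defining genes, and ATP4A and ATP4B, both encoding parts of the parietal cell proton pump, ranged from 11.69 to 12.22 and from 11.27 to 11.93 on the log2 scale over the 12 piglets, where the median of all features was 5.82. The array of CA piglet 4 had the lowest estimated weight (0.267, where 1 is the average array), and results were also computed without it. Levels are given as log2 intensity, in which 1 unit is a doubling. Intensities of different genes depend on their probes and are not compared with each other.

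CNN1 encodes calponin, a protein of the thin filament that restrains the myosin ATPase. In the CA piglets its log2 intensity was lowest at 10.06, with a median of 10.41 and a highest value of 11.13. In the SA piglets the lowest value was 9.49, the median 10.62 and the highest 11.61. The groups overlapped, the SA group held both ends of the range, and the highest and the lowest SA piglet (piglets 11 and 9) differed by 4.35-fold in intensity.

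TAGLN encodes transgelin, also called SM22 alpha, an actin-binding protein of smooth muscle cells. It ranged in the CA piglets from 10.31 to 11.22 with a median of 10.60, and in the SA piglets from 9.94 to 11.39 with a median of 10.73. ACTA2, the alpha actin of smooth muscle, also found in pericytes and myofibroblasts, ranged from 11.14 to 11.68 in the CA piglets (median 11.37) and from 11.13 to 11.87 in the SA piglets (median 11.44). The piglets at the ends were again SA piglets 11 and 9 in both genes, and CA piglet 1 was the highest of its group. Between the highest and the lowest piglet the intensity differed by 2.73-fold for TAGLN and by 1.67-fold for ACTA2. The actin genes are closely similar in sequence, and the reading of ACTA2 may include other actins, so it is the least certain of the muscle genes.

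PLN encodes phospholamban, which holds back the calcium pump of the sarcoplasmic reticulum until it is phosphorylated. Its log2 intensity ranged from 5.12 to 6.92 in the CA piglets with a median of 5.31, and from 4.38 to 8.16 in the SA piglets with a median of 6.14. The measured intensity differed by 13.7-fold between SA piglets 11 and 9, a ratio that may be compressed because the value of SA piglet 9 was dim, and the standard deviation (SD) of PLN over all piglets was the 15th largest of the 10882 genes. In the CA piglets 5 of 6 values lay close together, from 5.12 to 5.55, and piglet 1 stood above them.

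UCHL1, also known as PGP9.5, is a ubiquitin hydrolase abundant in neurons and neuroendocrine cells and serves as a general marker of enteric neurons. It ranged from 4.56 to 6.23 in the CA piglets (median 4.72) and from 4.52 to 6.59 in the SA piglets (median 5.23). The 5 lower CA piglets lay between 4.56 and 4.84, close to SA piglets 9 and 10, whereas SA piglets 7 and 11 and CA piglet 1 were all above 6. SA piglet 7, the second highest in UCHL1, held rank 4 in CNN1 and rank 8 in ACTA2. PLN was below the median of all features in 8 piglets and UCHL1 in 9, so that their lower values are near the dim end of the array, where differences are compressed.

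**Figure D1:**
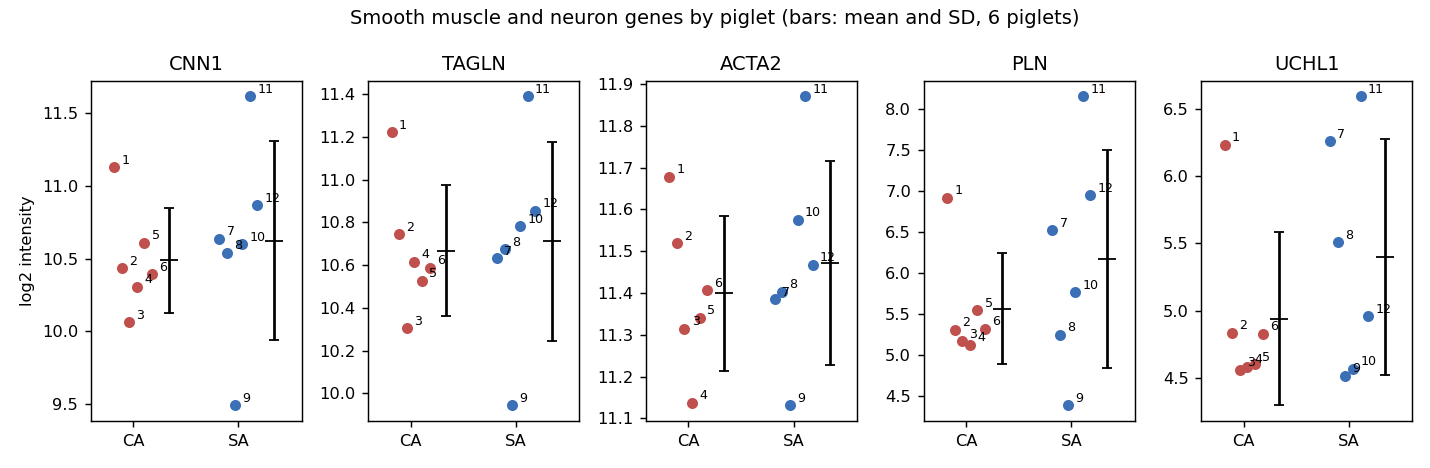
Log2 intensity (vertical axes, a scale for each gene) of CNN1, TAGLN, ACTA2, PLN and UCHL1 in 6 CA and 6 SA piglets; points are piglets with their number, and bars are the group mean and SD. SA piglet 11 is highest and SA piglet 9 lowest in all 5 genes, and CA piglet 1 is the highest CA piglet in each.

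The same piglets thus stood at the ends of the range in every measured gene. Averaged over the 5 genes, the deviation from the gene's mean over all piglets was 1.18 on the log2 scale in SA piglet 11 and 0.69 in CA piglet 1, against -0.85 in SA piglet 9 and -0.46 in CA piglet 3. The other 8 piglets lay between -0.39 and 0.34. In SA piglet 9 ACTA2 was almost equal to that of CA piglet 4 (11.13 and 11.14) and UCHL1 to those of CA piglet 3 and SA piglet 10 (4.52, 4.56 and 4.57), so that the lowest place in these 2 genes rests on small differences. A bulk sample of tissue cannot tell fewer cells of a type from less RNA in each of them, and this holds for all values given here. Over all 10882 genes the median range between the highest and the lowest piglet was 0.54 on the log2 scale, and the SD of CNN1 ranked 177, of TAGLN 499, of ACTA2 2915 and of UCHL1 49 from the largest.

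The first comparison set the CA piglets against the SA piglets and asked whether the early microbiota went with the level of these genes. All 5 genes had a lower mean in the CA piglets, and in none was the difference larger than the spread between piglets. With limma and Benjamini-Hochberg adjustment 0 of the 5 genes and 0 of all 10882 genes (0%) passed an adjusted p under 0.05, and 0 of 5 had an unadjusted p under 0.05, which 3.28% of all genes had (357 genes).

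The largest difference was that of PLN, whose mean was 5.56 ± 0.68 for CA and 6.17 ± 1.33 for SA piglets (SD, n = 6 each). The log2 difference was -0.61 with a standard error (SE) of 0.53 and a 95% interval from -1.74 to 0.53, and an exact two-sided permutation test that split the piglets in all 924 ways gave p = 0.331. UCHL1 was 4.94 ± 0.65 for CA and 5.40 ± 0.88 for SA piglets, a difference of -0.46 (SE 0.38, interval from -1.29 to 0.37, exact p = 0.288). These intervals are wide and include differences in both directions. With each piglet left out in turn, the difference of PLN ran from -0.21 (without SA piglet 11) to -0.97 (without SA piglet 9) and that of UCHL1 from -0.22 (without SA piglet 11) to -0.72 (without CA piglet 1), and none was called.

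The actin-associated genes differed less. CNN1 was 10.49 ± 0.36 for CA and 10.62 ± 0.68 for SA piglets (difference -0.14, SE 0.27, interval from -0.73 to 0.45, exact p = 0.680). TAGLN differed by -0.05 (SE 0.20, interval from -0.48 to 0.39, exact p = 0.848) and ACTA2 by -0.07 (SE 0.12, interval from -0.32 to 0.18, exact p = 0.578). The sign of these 3 differences rested on SA piglet 11, since without it they were 0.06, 0.09 and 0.01. The SD of each of the 5 genes was larger in the SA than in the CA piglets, and this difference in spread was not tested. The adjusted p of limma was 0.999 for each of the 5 genes, and no call was gained by leaving out any piglet.

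Compared at an equal level of CNN1, by adding CNN1 to the model, PLN differed between the CA and the SA piglets by -0.36 (SE 0.19) and UCHL1 by -0.32 (SE 0.27), and the adjusted p was 0.999 for both. TAGLN then differed by 0.05 (SE 0.07) and ACTA2 by -0.03 (SE 0.07). This comparison called 0 of 10881 genes with all piglets, and 2 genes, none of them a member, without CA piglet 3. The wider lists were likewise not called between the groups. Of 25 measured genes of the contractile apparatus of smooth muscle 18 had a lower mean in the CA piglets (median difference -0.04), of 37 genes of enteric neurons 20 (median -0.03) and of 16 genes of calcium handling 13 (median -0.09). Of 22 measured genes of the oxyntic epithelium 18 had a higher mean in the CA piglets (median 0.23). Over all genes 52.6% had a higher mean in the CA piglets and the median difference was 0.01.

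The members moved together from piglet to piglet. Over the 10 pairs of the 5 genes, Pearson's r across the 12 piglets ranged from 0.675 to 0.964 with a median of 0.847, where the median over all pairs of genes was 0.01 and 2.54% of all pairs were at or above the lowest of the 10. The permutation tests of single pairs below are two-sided, with 100000 permutations and no adjustment for the 10 pairs computed. The smallest p that they can give is 1e-05. The members were chosen with earlier results of these data known, so these p values do not test a list chosen beforehand.

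By Pearson's r CNN1 and TAGLN were the closest pair, with r = 0.964 (permutation p = 1e-05) and Spearman's rho = 0.818 (permutation p = 0.00174). Without SA piglets 9 and 11, the 2 farthest from the median of CNN1, r was 0.889, and it was 0.910 within the CA and 0.992 within the SA piglets. CNN1 and PLN had r = 0.928 and rho = 0.951 (permutation p = 1e-05 for both), r = 0.862 without the same 2 piglets, and 0.940 and 0.939 within the CA and the SA piglets. The piglets thus kept nearly the same order in CNN1 and PLN.

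CNN1 and ACTA2 had r = 0.872 (permutation p = 0.0004) and rho = 0.748 (permutation p = 0.00662), with r = 0.692 without SA piglets 9 and 11, 0.742 within the CA and 0.938 within the SA piglets. For CNN1 and UCHL1, a gene of neurons and neuroendocrine cells, r was 0.742 (permutation p = 0.00215) and rho 0.818 (permutation p = 0.00181). Without the 2 farthest piglets r was 0.626, and it was 0.885 within the CA and 0.700 within the SA piglets. PLN and UCHL1 had r = 0.790 (permutation p = 0.0032) and rho = 0.734 (permutation p = 0.00874). Without SA piglets 11 and 12, the 2 farthest from the median of PLN, r was 0.806, but this keeps CA piglet 1. Within the CA and the SA piglets r was 0.966 and 0.708. The weakest pair was ACTA2 and UCHL1, with r = 0.675 (permutation p = 0.0156) and rho = 0.629 (permutation p = 0.0324). That relation rested on CA piglet 1 and SA piglet 11, without which r was 0.218.

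The piglets at the ends carried much of this relation. With CA piglet 1 and SA piglets 9 and 11 all left out, the median r over the 10 pairs was 0.474 in the other 9 piglets. Over those 9 piglets r was still 0.800 for CNN1 and PLN and 0.782 for CNN1 and TAGLN. However, r was 0.464 for PLN and UCHL1, 0.373 for CNN1 and UCHL1 and 0.0915 for ACTA2 and UCHL1. Removing the ends of a range lowers a correlation by its construction, and these values are given as a description.

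**Figure D2:**
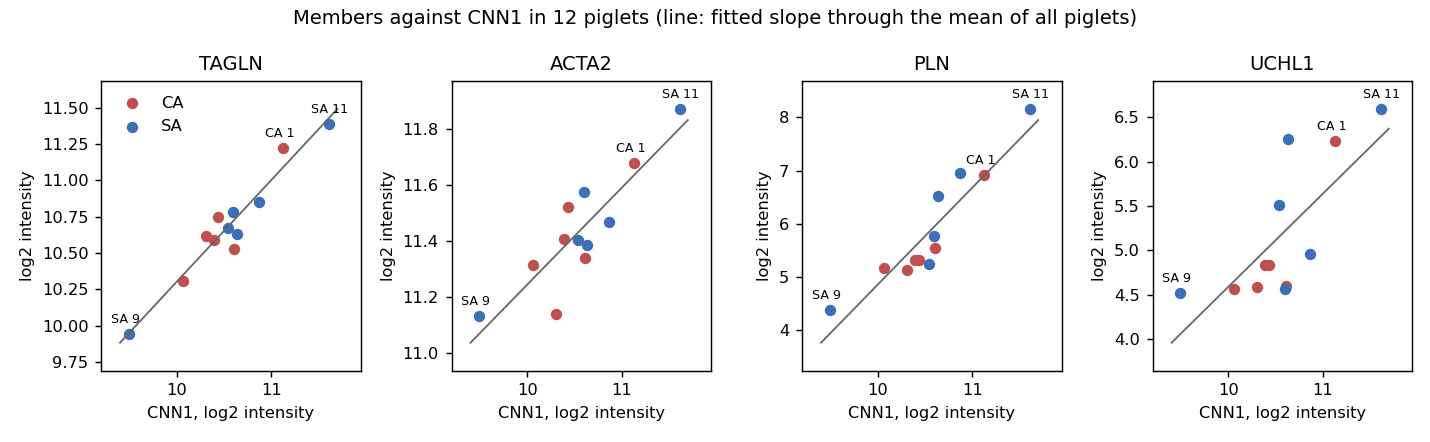
Log2 intensity of TAGLN, ACTA2, PLN and UCHL1 (vertical axes) against that of CNN1 (horizontal axes) in 12 piglets, coloured by group; the line has the slope fitted with a group term and passes through the mean of all piglets. TAGLN and PLN rise with CNN1. UCHL1 is high in SA piglets 7 and 8 at a middle level of CNN1. At that level PLN is 6.52 in SA piglet 7 and 5.245 in SA piglet 8.

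To read the members against all other genes, the log2 level of each of the 10881 other genes was fitted on that of CNN1 with the group as a second term. The slope is the log2 change of a gene per log2 unit of CNN1. In this fit 2.05% of genes rose with CNN1 at an adjusted p under 0.05 (223 genes) and 0.285% fell with it (31 genes), and 3 of the 4 other members rose. PLN had a slope of 1.82 (SE 0.19, 95% interval from 1.41 to 2.23, adjusted p = 1.31e-04), which is above 1, whereas TAGLN had a slope of 0.70 (SE 0.07, adjusted p = 7.74e-05). ACTA2 had a slope of 0.35 (SE 0.07, adjusted p = 0.0198). UCHL1 had a slope of 1.05 (SE 0.27) with an adjusted p of 0.0637 and did not pass.

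The calls of PLN and TAGLN were kept when any piglet was left out. ACTA2 was no longer called without CA piglet 1 (adjusted p = 0.0734), SA piglet 9 (adjusted p = 0.0842) or SA piglet 11 (adjusted p = 0.235), while its slope stayed between 0.31 and 0.39. UCHL1 passed without SA piglet 7 (adjusted p = 0.0376), SA piglet 10 (adjusted p = 0.0399) or SA piglet 12 (adjusted p = 0.0397), with a slope between 0.86 and 1.34 over all piglets left out in turn. The count of all genes that rose with CNN1 was 93 without SA piglet 11, 142 without CA piglet 1 and 255 without CA piglet 4. The counts of gene lists below without SA piglet 11 or CA piglet 1 stand beside these 93 and 142 genes, against 223 in all 12 piglets.

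Genes of the contractile apparatus formed the group with the most calls. Of 37 genes listed 25 were measured, and 16 rose with CNN1 and 0 fell, with a median slope of 0.49 where the median over all genes was -0.02. Their number was 9 without SA piglet 11 and 14 without CA piglet 1. TPM2, a tropomyosin that lies along the actin filament, rose with a slope of 1.20 (SE 0.07, adjusted p = 1.89e-06), and its log2 intensity ran from 8.10 in SA piglet 9 to 10.48 in SA piglet 11. PDLIM3, a protein that binds alpha-actinin, rose with a slope of 1.47 (SE 0.09, adjusted p = 3.32e-06). CALD1, caldesmon of the thin filament, rose with a slope of 0.81 (SE 0.06) and KCNMB1, the smooth muscle subunit of the large calcium-activated potassium channel, with a slope of 1.27 (SE 0.10), both with an adjusted p of 1.25e-05. Of the same list 9 genes did not pass. They were SMTN, MYL6, ITGA5, PPP1R12A, HSPB8, TPM4, CNN3, PPP1R12B and ITGA8. SMTN had a slope of 0.34 (adjusted p = 0.0681) and the light chain MYL6 one of 0.24 (adjusted p = 0.0685). TPM4, a tropomyosin of non-muscle cells, had a slope of -0.07 (adjusted p = 0.699).

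The genes that surround PLN in the handling of calcium were divided. Of 16 measured genes 7 rose with CNN1 and 0 fell, and the median slope was 0.04. The number was 3 without SA piglet 11 and 5 without CA piglet 1. ATP2B4, a calcium pump of the plasma membrane, rose with a slope of 0.74 (SE 0.09, adjusted p = 6.52e-04). CACNB2, a subunit of voltage-gated calcium channels, rose with a slope of 0.78 (SE 0.11, adjusted p = 0.00184), and RYR3, a calcium release channel, with a slope of 0.90 (SE 0.13, adjusted p = 0.00259). CASQ2, calsequestrin, which stores calcium inside the reticulum, rose with a slope of 1.52 (SE 0.23, adjusted p = 0.00259) and ranged from 4.84 in SA piglet 9 to 8.39 in SA piglet 11.

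ATP2A2, the SERCA2 pump that phospholamban inhibits, had a slope of -0.01 (SE 0.07, adjusted p = 0.972) and ranged only from 9.81 to 10.25. The pump is expressed by most cell types, and whether this bears on its slope was not tested. The slope of PLN on CNN1 given above was 1.82. SLN, sarcolipin, the other small inhibitor of the pump, had a slope of -0.25 (adjusted p = 0.235). ATP2A2 and SLN were chosen for their known tie to PLN and after their values were seen.

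**Figure D3:**
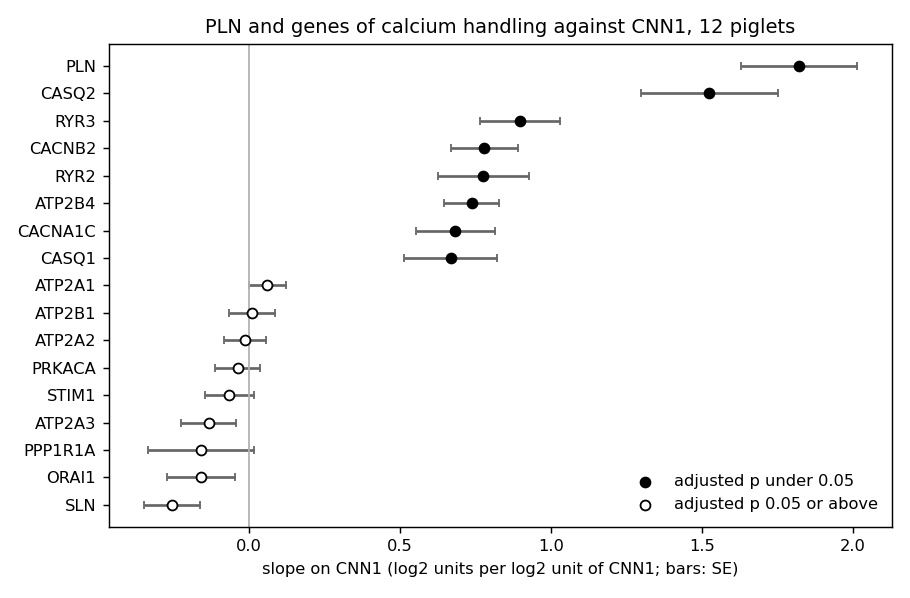
Slope on CNN1 (horizontal axis, log2 units per log2 unit of CNN1) of PLN and 16 genes of calcium handling in 12 piglets, from a fit with a group term; bars are the SE and filled points have an adjusted p under 0.05. PLN has the highest slope (1.82), 7 other genes are called, and ATP2A2 lies at -0.01.

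Transcription factors and receptors of smooth muscle gave fewer calls. Of 12 measured regulators 3 rose and 0 fell, namely HAND2, a factor of mesenchyme and autonomic neurons, with a slope of 1.16 (SE 0.15, adjusted p = 6.93e-04), FHL1, a LIM domain protein of muscle (slope 0.40, SE 0.07, adjusted p = 0.0102), and BARX1, a homeobox factor of the stomach mesenchyme (slope 0.51, SE 0.09, adjusted p = 0.0110). Without SA piglet 11 only 1 of the 12 was called. GATA6, a factor of the gastric epithelium and of muscle, had a slope of -0.15 (adjusted p = 0.252). MYOCD, myocardin, the coactivator that drives contractile genes in smooth muscle, had a slope of 0.14 (SE 0.11, adjusted p = 0.655) and is named after its value was seen. Of 12 measured receptors and effectors 1 rose, HTR2B, a serotonin receptor (slope 0.72, SE 0.13, adjusted p = 0.00970), and it was not called without SA piglet 11. PTGFR, a prostaglandin receptor, had a slope of 0.29 (adjusted p = 0.418), and the subunits of soluble guanylate cyclase, through which nitric oxide relaxes muscle, had slopes of 0.29 (GUCY1A3, adjusted p = 0.0829) and 0.43 (GUCY1B3, adjusted p = 0.0889).

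A part of the genes of enteric neurons rose with the muscle gene CNN1. Of 50 genes listed 37 were measured, and 10 rose with CNN1 and 0 fell, with a positive slope in 29 of 37 (42.7% of all genes had one). Their number was 4 without SA piglet 11 and 5 without CA piglet 1. VSNL1, a neuronal calcium sensor, had a slope of 2.51 (SE 0.22, adjusted p = 3.60e-05) and ranged from 4.10 in SA piglet 9 to 9.21 in SA piglet 11. CARTPT, the precursor of a neuropeptide, had a slope of 1.93 (SE 0.30) and VIP, the neuropeptide that relaxes gut muscle, a slope of 1.22 (SE 0.19), both with an adjusted p of 0.00340. VSNL1, CARTPT and VIP were named after their values were seen. HAND2 is counted in the list of regulators and in that of neurons. The enzyme genes of transmitter synthesis in this list, CHAT for acetylcholine and NOS1 for nitric oxide, had slopes of -0.02 (adjusted p = 0.951) and 0.01 (adjusted p = 0.989), and both were dim, with a median log2 intensity of 4.42 and 4.85.

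The fit on UCHL1 in place of CNN1 gave fewer calls. In it 0.386% of genes rose (42 genes) and 0.046% fell (5 genes) at an adjusted p under 0.05, and 0 of the 4 other members passed. PLN had a slope of 1.06 on UCHL1 (SE 0.25, adjusted p = 0.0765), CNN1 of 0.53 (SE 0.14, adjusted p = 0.104), TAGLN of 0.37 (SE 0.10, adjusted p = 0.120) and ACTA2 of 0.19 (SE 0.07, adjusted p = 0.248). Of the 37 neuronal genes 5 rose with UCHL1. SYT1, the calcium sensor of synaptic vesicles, had a slope of 0.48 (SE 0.08), MAP1B, a microtubule protein of axons, of 0.35 (SE 0.06), SLC5A7, the choline transporter of cholinergic neurons, of 0.47 (SE 0.08) and NCAM1, a neural adhesion molecule, of 0.29 (SE 0.05), each with an adjusted p of 0.0377. STMN2, a regulator of microtubules in growing neurites, was the fifth (slope 0.56, adjusted p = 0.0487). All 5 calls were lost without CA piglet 1 and also without SA piglet 11, when 0 of all genes rose with UCHL1, and the number of all genes that rose was 179 without SA piglet 7. Of the 25 contractile genes 2 rose with UCHL1, and of the genes of calcium handling 2 of 16.

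Glia and pacemaker cells of the gut wall were read in the same way. Of 9 measured genes of enteric glia 1 rose with CNN1, CDH19, a cadherin of glia and Schwann cells (slope 0.63, SE 0.14, adjusted p = 0.0325), which was not called without SA piglet 11 or without CA piglet 1. SOX10, a transcription factor of the neural crest and of glia, had a slope of 0.21 (adjusted p = 0.224), and GFAP, a filament of glia, one of -0.21 (adjusted p = 0.360). Of 5 measured genes of the interstitial cells of Cajal, the pacemaker cells of the gut, 2 rose, THBS4, a thrombospondin of the matrix (slope 1.05, SE 0.17, adjusted p = 0.00408), and GJA1, a gap junction protein of many cell types (slope 0.47, SE 0.11, adjusted p = 0.0357). Both calls were lost without SA piglet 11. The mean deviation of these 5 genes ran from -0.30 in SA piglet 9 to 0.55 in SA piglet 11. KIT and ANO1, the receptor and the chloride channel that define these cells, had slopes of 0.28 (adjusted p = 0.455) and 0.25 (adjusted p = 0.316).

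The markers of other cell types of the gastric wall were read beside these genes. Of 18 measured genes of fibroblasts and matrix 1 rose with CNN1, ASPN, a small matrix proteoglycan (slope 1.54, SE 0.21, adjusted p = 0.00117). The slope was positive in 17 of 18, and in 42.7% of all genes. An unadjusted p under 0.05 was found in 11 of 18, and in 13.1% of all genes. SFRP2, a secreted inhibitor of Wnt signalling, had a slope of 0.71 (adjusted p = 0.0565), COL1A2 a slope of 0.32 (adjusted p = 0.0928) and COL5A2 a slope of 0.25 (adjusted p = 0.124). Of 7 genes of pericytes, the contractile cells of small vessels, 1 rose, MCAM (slope 0.51, SE 0.11, adjusted p = 0.0257), while KCNJ8 had a slope of 0.23 (adjusted p = 0.203). Of 6 genes of adipocytes 1 rose, PLIN4, a coat protein of lipid droplets (slope 0.88, SE 0.09, adjusted p = 1.15e-04). Of 14 genes of striated muscle 1 rose and 1 fell, ACTC1, the cardiac actin (slope 0.39, adjusted p = 0.0140), and TTN, titin (slope -0.51, adjusted p = 0.0298). The calls of MCAM, ACTC1 and TTN were lost without SA piglet 11, and that of MCAM also without CA piglet 1. Of 7 genes of endothelium, 18 of immune cells and 5 of red blood cells 0 were called.

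Genes of the epithelium mostly had slopes of the opposite sign, which was the commoner sign, since 42.7% of all genes had a positive slope on CNN1. Of 22 measured genes of the oxyntic epithelium 20 had a negative slope on CNN1, with a median of -0.18, but 0 passed an adjusted p under 0.05. Without SA piglets 9 and 11, the 2 farthest from the median of CNN1, the median turned to 0.09, so its sign rests on those 2 piglets. HDC, the histamine enzyme of enterochromaffin-like cells, had a slope of -0.56 (SE 0.22, adjusted p = 0.272), and MUC1, CCKBR and CHGA had slopes of -0.18, -0.51 and -0.35 with adjusted p from 0.301 to 0.381. Of 18 genes of epithelium in general 15 had a negative slope (median -0.10) and 1 fell, GRHL2, a transcription factor of epithelial cells (slope -0.37, SE 0.07, adjusted p = 0.0137), a call that was lost without SA piglet 11. The median over the 18 genes kept its sign without SA piglets 9 and 11 (-0.27).

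Summed up per piglet, the mean deviation of the 25 contractile genes ran from -0.55 in SA piglet 9 to 0.64 in SA piglet 11, with 0.51 in CA piglet 1. The 37 neuronal genes were at -0.30 in SA piglet 9, 0.28 in CA piglet 1 and 0.33 in SA piglet 11, and the 18 genes of fibroblasts and matrix at -0.30, 0.27 and 0.27. The 22 genes of the oxyntic epithelium were at 0.34 in SA piglet 9, 0.12 in CA piglet 1 and -0.27 in SA piglet 11. The 18 genes of epithelium in general were at -0.02, -0.22 and -0.17 in the same piglets, and at 0.13 in SA piglet 10. The lowest mean of the oxyntic genes was that of SA piglet 10 (-0.37), whose contractile genes were near their average (-0.05). Over the CA piglets the range of the oxyntic mean was from -0.20 to 0.27 and over the SA piglets from -0.37 to 0.34. The part of the tissue composition in the values of the muscle and neuron genes was not tested.

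**Figure D4:**
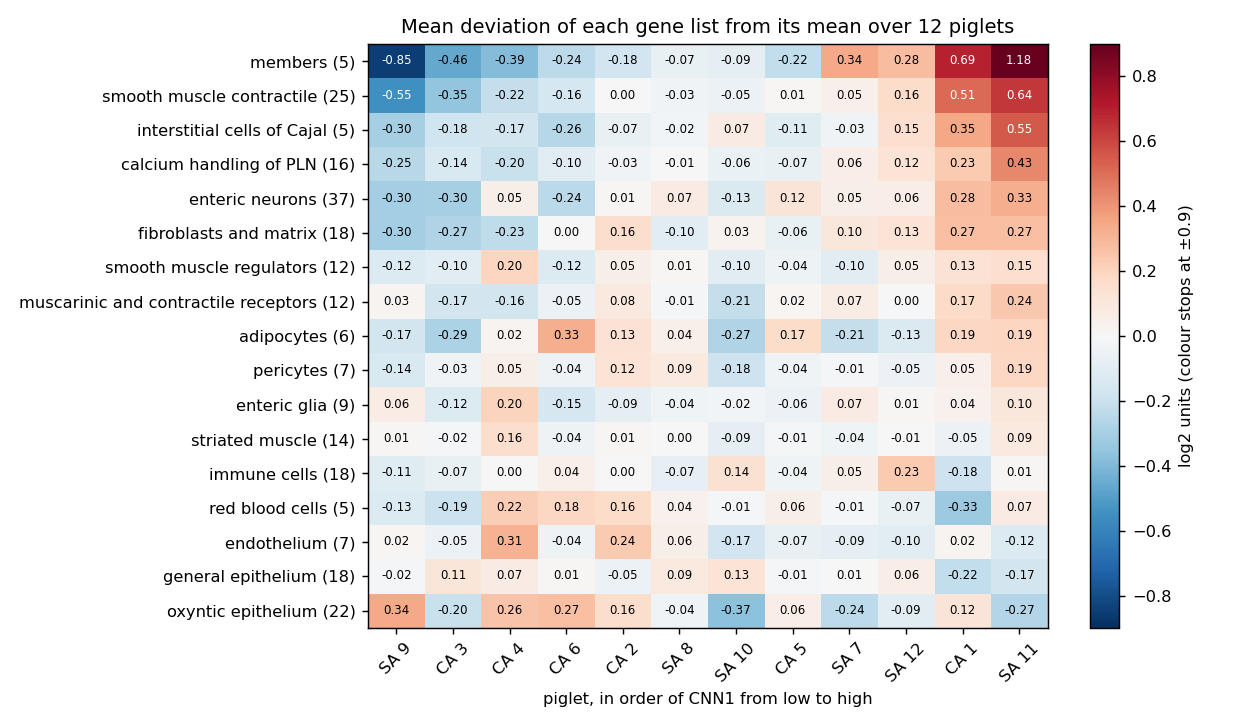
Mean deviation (colour and printed value, log2 units) of the measured genes of each list, with their number in brackets, from their mean over the 12 piglets, which are ordered by CNN1 from low to high. The lists of contractile genes, neurons and fibroblasts have their lowest mean in SA piglet 9 and their highest in SA piglet 11. The neuron mean is nearly as low in CA piglet 3 (-0.302, against -0.303). The fibroblast mean is nearly as high in CA piglet 1 (0.273, against 0.274). The oxyntic epithelium is at 0.34 in SA piglet 9 and -0.27 in SA piglet 11.

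**Figure D5:**
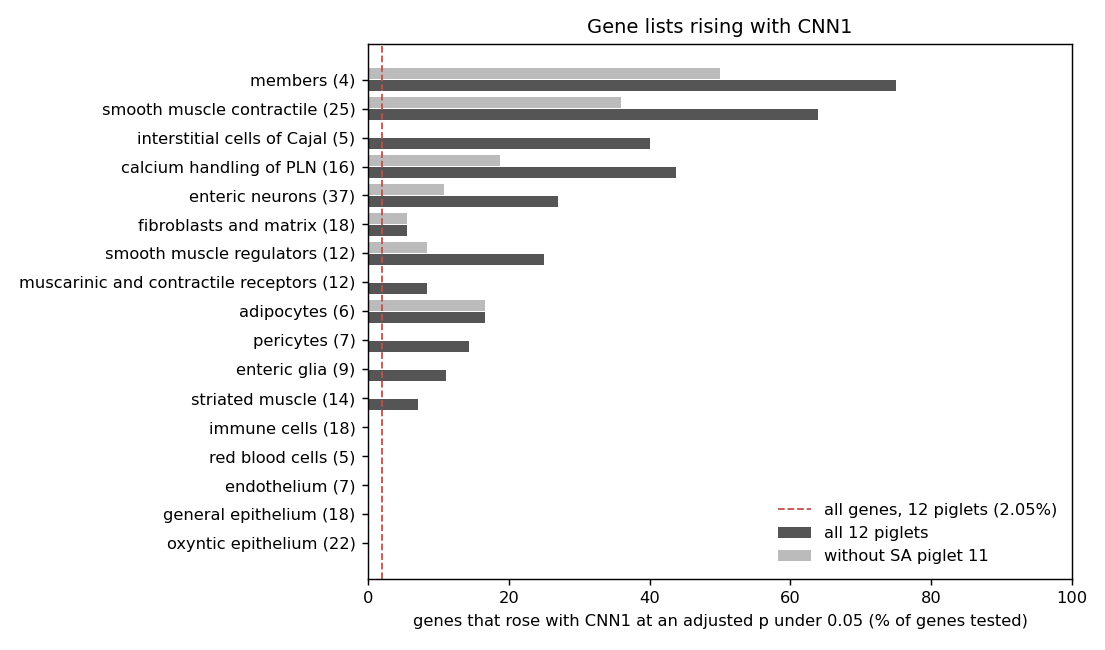
Share of the genes tested in each list (horizontal axis, %) that rose with CNN1 at an adjusted p under 0.05, in all 12 piglets and without SA piglet 11; the dashed line is the share of all genes (2.05%). The line holds for all 12 piglets, in which 223 of 10881 genes rose, against 93 without SA piglet 11. Of the contractile genes 16 of 25 rose, and 9 of 25 without SA piglet 11.

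The genes whose pattern was most like that of the muscle members were sought over all genes outside the list by Pearson's r across the 12 piglets. To the mean of CNN1, TAGLN and ACTA2 the nearest were PDLIM3 (r = 0.983, rho = 0.965), TPM2 (r = 0.981, rho = 0.909), KCNMB1 (r = 0.980, rho = 0.930), CALD1 (r = 0.979, rho = 0.923) and SMYD1 (r = 0.977, rho = 0.944), a methyltransferase known from striated muscle. The most opposite were PHF8, PRPSAP1, AK7, FAM193B and CERS3, with r from -0.919 to -0.881. AK7 and CERS3 were dim, with highest log2 intensities of 3.36 and 3.69. These are extremes among all genes, and they are given as a description with no test.

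To UCHL1 the nearest were RELN (r = 0.911, rho = 0.965), a secreted matrix protein of neurons, FOXP2 (r = 0.908, rho = 0.832), CPQ (r = 0.907, rho = 0.762), CTNNA3 (r = 0.903, rho = 0.909) and FSTL5 (r = 0.886, rho = 0.832). To PLN the nearest were CTXN3 (r = 0.985, rho = 0.909), ITGA1 (r = 0.971, rho = 0.951), the collagen-binding integrin alpha 1, KCNMA1 (r = 0.971, rho = 0.902), the pore of the channel to which KCNMB1 belongs, FGF10 (r = 0.969, rho = 0.916), a growth factor of mesenchyme, and TNC (r = 0.962, rho = 0.909), tenascin C of the matrix. None of the 5 genes nearest to UCHL1 was among the 5 nearest to PLN or to the mean of the muscle genes. The 5 nearest to PLN and the 5 nearest to that mean shared no gene either. The lack of overlap is thus not particular to UCHL1.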

How the data were processed

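RNA from the oxyntic mucosa of 12 piglets was measured on Affymetrix porcine gene array strips, 1 array per piglet, with the group of each piglet taken from its label. Robust Multichip Analysis (background correction, quantile normalization and probe summary) had been run by the authors in the Affymetrix Expression Console (version not given in the sources used here). Deposited values are linear intensities and were converted to log2. Quantile normalization forces the arrays to one distribution, so a shift common to all genes cannot be seen.

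Features were named through the platform annotation: 11939 of 27558 carried 1 symbol, 416 several and 15203 none. The brightest feature of each gene was used (958 genes had several). Genes were tested with lmFit and eBayes of limma 3.58.1 in R 4.3.3, two-sided, with Benjamini-Hochberg adjustment over all genes. The fits were tested on simulated data with independent noise for each gene, which does not cover variation shared between genes. The exact permutation test can give no p below 0.00216. Python 3.11.15, numpy 2.4.6, pandas 2.3.3, scipy 1.17.1 and matplotlib 3.10.9 were used. The slope was planned on MYH11, and CNN1 was used in its place since no feature is named by MYH11 alone here. Likewise the pattern of the muscle genes was planned over 6 genes and taken over the 3 measured.

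Named genes were all measured members, up to 4 genes of a list with the smallest p in the fit on CNN1 (for neurons, on UCHL1), and the 5 nearest or most opposite genes. The others were chosen after their values were seen: these are ATP2A2, SLN, MYOCD, VSNL1, CARTPT, VIP, CHAT, NOS1, STMN2 and the contractile genes that did not pass. Members and lists were chosen with earlier results of these data known. Alternatives were averaged features per gene, a filter on dim genes, quantile normalization again, array medians subtracted, moderation with trend, array weights, no group term, leaving out the 2 farthest piglets or each piglet in turn and, chosen after the data were seen, CNN1 as a covariate, CNN1 in place of MYH11 and leaving out CA piglet 1 and SA piglets 9 and 11.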

Additional observations from a re-analysis of the deposited data

Results flagged for a closer look

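In the CA piglets, the PLN value of piglet 1 (6.92) stood apart from the other 5, the nearest of which was 5.55, and the gap made up 0.764 of the range of the group. The UCHL1 value of the same piglet (6.23) stood apart in the same way, with the nearest at 4.84 and a gap of 0.836 of the range. Both gaps exceed Dixon's limit of 0.625 for 6 samples, which chance passes in about 1 of 20 groups, and PLN and UCHL1 are correlated, so the pair of values is not independent. CNN1, TAGLN and ACTA2 of CA piglet 1 were also the highest of the group, with gaps of 0.489, 0.520 and 0.294 of the range. No value of the SA piglets stood apart by this measure in the 5 genes, although SA piglets 11 and 9 held the ends of all of them.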

How the results depend on the processing

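No paired analysis was possible because the piglets are numbered through both groups and share no number. Some alternatives cannot change the direction of a member's value. Averaged features leave it as it was, since each member has 1 feature. The filter on dim genes, moderation with trend and the exact permutation test also leave the difference or slope unchanged. With these included, 237 single-gene values kept their direction and side of the threshold under an alternative, 8 gained and 4 lost a call, and 5 changed sign. These were the CA minus SA differences, none of them called, of CNN1 (0.062), TAGLN (0.090) and ACTA2 (0.0069) without SA piglet 11, and of TAGLN without CA piglet 3 (0.027) and with CNN1 as a covariate (0.050). With each piglet left out in turn, CNN1 ran from -0.36 to 0.062, TAGLN from -0.20 to 0.090 and ACTA2 from -0.14 to 0.0069, the median difference of the members from -0.36 to 0.0069, PLN from -0.97 to -0.21 and UCHL1 from -0.72 to -0.22. Between the groups 0 genes were called under these alternatives, and 2 genes with CNN1 as a covariate and CA piglet 3 left out.

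Genes rising with CNN1 numbered 355 with array weights and 120 without the 2 farthest piglets, and 93 to 255 with each piglet left out. Genes falling numbered 106 with array weights, 49 with no group term, 12 without the 2 farthest piglets and 3 to 56 with each piglet left out. Of the 4 members 2 to 4 were called. Genes rising with UCHL1 numbered 27 without dim genes, 83 with array weights, 2 without the 2 farthest piglets and 0 to 179 with each piglet left out. Genes falling with it numbered 3, 24, 0 and 0 to 12, and 2 with trend and robust moderation, and 0 to 2 members were called. The slope of UCHL1 on CNN1 passed with array weights (adjusted p = 0.0369) and with no group term (adjusted p = 0.0440). The median r over pairs ran from 0.734 (without SA piglet 11) to 0.877, and was 0.474 without CA piglet 1 and SA piglets 9 and 11. The cause of these shifts was not tested, and some of the alternatives used fewer genes or piglets. The filter on dim genes removes PLN and UCHL1, so no value of them is given under it.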
